A study of Mus musculus with 15 samples.

Results

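The insulin-like growth factor genes of liver were followed here as 7 genes: Igf1 itself, Igfals, and the binding-protein genes Igfbp1, Igfbp2, Igfbp3, Igfbp4 and Igfbp7. They were taken by name from a table of estimated counts per transcript, summed per gene symbol, and are 7 of 35546 genes in that table and 7 of the 13916 genes that passed the filter on low counts. All 7 passed that filter. Bulk RNA was sequenced from mouse liver in 15 libraries, 5 from Txnip knockout mice (KO), 5 from mice with the C247S change in TXNIP (C247S KI) and 5 from wild-type mice (WT), and all 3 groups had been on a high-fat diet for 8 weeks. The Txnip gene encodes a thioredoxin-binding arrestin that limits the uptake of glucose into cells, and the C247S change replaces a cysteine of that protein. The labels give neither the strain, the age, the cell types in which the knockout acts nor whether the libraries come from separate animals, and the p-values therefore describe library-to-library spread, part of which may be technical. The titles carry a number for each library, and those of KO libraries form a lower run than the run that C247S KI and WT libraries share. What the numbers stand for is not given, and whatever goes with them cannot be told apart from the knockout.

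The libraries held 18047577 to 23379940 estimated counts each. Txnip was lower in KO libraries but still measured there, at 70.9 to 123 CPM (counts scaled to a common library size), against 180 to 320 CPM in WT libraries, and C247S KI libraries held 99.9 to 280 CPM. The hepatocyte marker albumin (Alb) averaged 38230 ± 6214 CPM in KO, 66613 ± 17791 CPM in C247S KI and 66440 ± 5064 CPM in WT livers (SD, n = 5 each), and the labelled tissue was thereby present in each group. On the first 2 principal components of all tested genes KO 5, C247S KI 5 and WT 1 lay farthest out.

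IGF1 is a hormone that the liver makes under the control of growth hormone, and it circulates almost entirely bound to carrier proteins. The acid-labile subunit, the product of Igfals, joins IGF1 and IGFBP3 in a long-lived complex of 3 proteins in plasma, and it is made by hepatocytes. IGFBP1 and IGFBP2 form smaller complexes with IGF1. The Igfbp1 gene is repressed by insulin through FOXO factors and responds within hours to fasting and feeding, which makes it a common readout of insulin action in liver.

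Promoter sequences of the members from RefSeq (GRCm38.p6) were searched over the 250 bases before each start listed there. The search was made because insulin, growth hormone and the clock are known to act on these genes through short DNA elements. The motifs, searched on both strands, were CAAAACA, the core of the insulin response element bound by FOXO factors, TTCNNNGAA, the site of STAT factors, and CACGTG, the E-box bound by clock factors. They do not overlap each other in the sequences shown. Capitals mark the match in 3 windows that held one. They belong to Igfbp1 (chr11:7197537-7197786, plus strand), Igfals at the start nearest its coding transcript (chr17:24877981-24878230, plus strand) and Igfbp2 (chr1:72824230-72824479, plus strand).
Igfbp1: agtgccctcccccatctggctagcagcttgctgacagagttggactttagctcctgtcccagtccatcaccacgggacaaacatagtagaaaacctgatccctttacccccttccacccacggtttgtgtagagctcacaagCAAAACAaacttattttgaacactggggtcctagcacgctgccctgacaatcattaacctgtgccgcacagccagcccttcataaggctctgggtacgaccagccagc
Igfals: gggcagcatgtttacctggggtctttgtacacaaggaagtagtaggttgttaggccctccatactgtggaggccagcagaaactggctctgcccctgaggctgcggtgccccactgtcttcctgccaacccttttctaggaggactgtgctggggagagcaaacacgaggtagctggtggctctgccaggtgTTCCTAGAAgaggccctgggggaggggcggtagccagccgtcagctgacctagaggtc
Igfbp2: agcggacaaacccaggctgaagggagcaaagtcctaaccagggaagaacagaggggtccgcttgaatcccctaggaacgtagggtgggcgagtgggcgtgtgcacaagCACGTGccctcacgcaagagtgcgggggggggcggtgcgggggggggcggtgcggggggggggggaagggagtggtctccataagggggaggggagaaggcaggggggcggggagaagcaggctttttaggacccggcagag

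The Igfbp1 promoter held CAAAACA once, starting 108 bases before the start, and 5.56% of 32851 mouse promoter windows held it. Igfals held TTCNNNGAA 58 bases before the start shown, and once more 236 bases before another annotated start, a motif present in 7.02% of windows. The E-box stood in the Igfbp2 promoter 142 bases before the start, and in 6.02% of windows. A further Igfals window (chr17:24878497-24878746) and the other Igfbp2 window (chr1:72825137-72825386) held none of the 3 motifs. That Igfals window lies nearest the start of Igfals-204, the annotated transcript that held most Igfals counts. No other member's window held any of the 3 motifs, which says only that these letters are not in those windows. For Igf1 the window searched (chr10:87860861-87861110) lies downstream of the annotated starts of Igf1-202 (87859068) and Igf1-205 (87859490). The bases before those starts were not searched, and Igf1-202 held most Igf1 counts. A match describes the sequence and does not show that a factor was bound in these livers.

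Divided by transcript length, the members spanned a wide range of levels in liver, and the place of Igfbp1 in that order differed between groups. Igfbp4, which binds IGF1 and keeps it from its receptor, was the most abundant in 14 of 15 libraries, at 669 ± 60.6 CPM per kb in KO, 523 ± 104 CPM per kb in C247S KI and 549 ± 24.1 CPM per kb in WT livers (SD, n = 5 each). Igfbp2 came second by group mean in KO and WT livers, and in KO 2 it stood above Igfbp4. Igfbp1 ranked 3rd to 6th among the 7 in single KO libraries, against 2nd or 3rd in every C247S KI and every WT library. Igfbp3 was last in all 15 libraries, at 5.15 ± 0.65 CPM per kb in KO, 7.67 ± 1.71 in C247S KI and 8.48 ± 1.53 in WT livers. Between these ends some neighbours were not separated by their spread: in KO livers Igfbp1 (42.2 to 91.3 CPM per kb), Igfals (43.1 to 66.4) and Igfbp7 (43.0 to 56.0) overlapped, and in WT livers Igf1 (71.7 to 108) overlapped with Igfbp1 (89.3 to 194) and with Igfbp7 (60.5 to 72.5).

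Knockout of Txnip went with a changed set of IGF carriers and with little difference in Igf1. Against WT, Igfals rose in KO livers, Igfbp1, Igfbp3 and Igfbp7 fell, and Igf1, Igfbp2 and Igfbp4 did not pass the threshold, an adjusted p below 0.05 in the edgeR quasi-likelihood test. These 4 of 7 members stand beside 6.75% of all tested genes in that comparison, with 2.56% of genes higher and 4.19% lower. In 5 of the 7 the KO and WT libraries did not overlap (Igfals, Igfbp2, Igfbp3, Igfbp4 and Igfbp7), against 9.6% of all tested genes. The median size of the log2 difference was 0.72 over the members and 0.21 over all tested genes. Igfals, Igfbp1, Igfbp3 and Igfbp7 also passed in DESeq2 and when C247S KI 3, C247S KI 5 and WT 1 were all left out, a set taken over from earlier work on these data that does not hold KO 5. Igfbp7 was lost without KO 2 (edgeR adjusted p = 0.0561) and without KO 5 (0.0532). With a clock index as covariate, described with Igfbp1, Igfals alone passed, and Igfbp1 (edgeR adjusted p = 0.557), Igfbp3 (0.329) and Igfbp7 (0.086) did not.

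**Figure D1:**
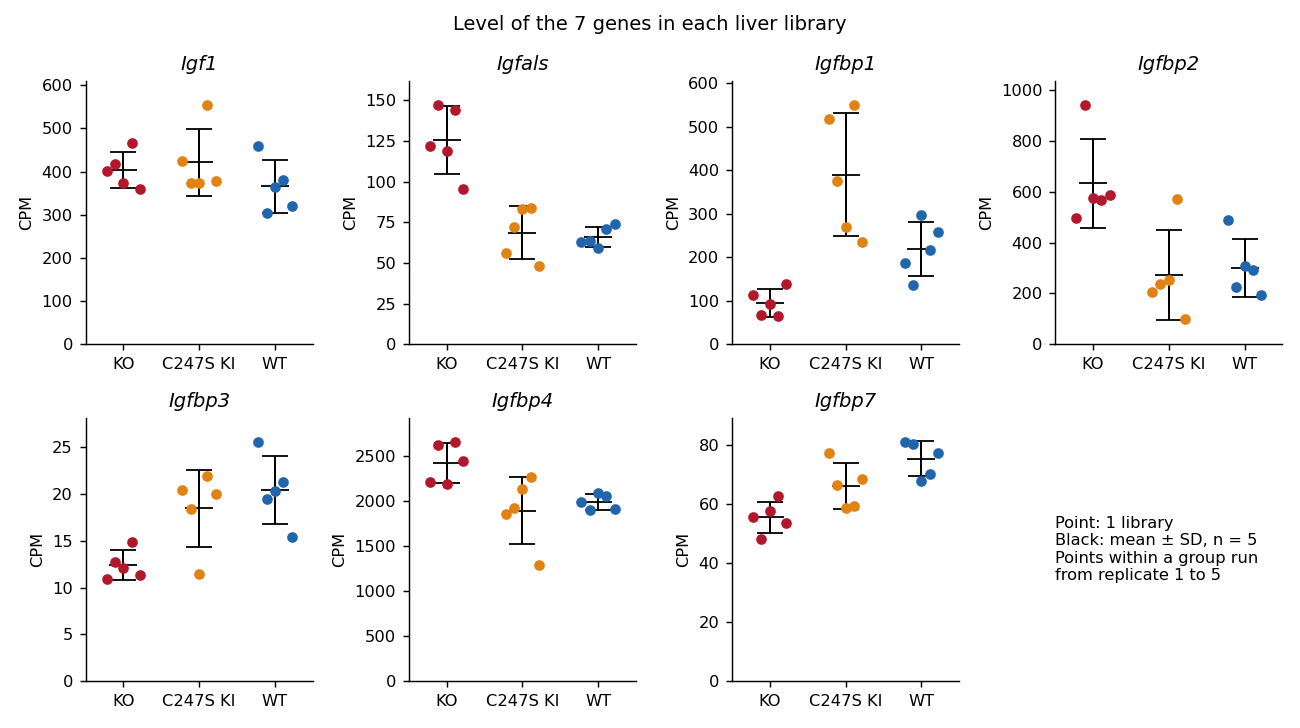
Each panel plots 1 gene, with 1 point per library (CPM, linear axis from 0) and the mean and SD of the 5 libraries of KO, C247S KI and WT. The KO points lie above all WT points for Igfals (95.4 CPM or more, against 74.1 CPM or less) and below them for Igfbp3 and Igfbp7. For Igfbp1 4 of the 5 KO points lie below all WT points, and the Igf1 points of the 3 groups overlap.

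In C247S KI livers no difference from WT livers in these genes passed the threshold. None of the 7 members passed in edgeR, where 0.0862% of all tested genes did, 1 member had an unadjusted p under 0.05 (9.84% of all tested genes did), and DESeq2 called none either. That member was Igfbp1, at 1.78-fold the WT level (log2 interval 0.27 to 1.40), with 3 of 5 C247S KI libraries above every WT library. No member had C247S KI and WT libraries that did not overlap, against 1.3% of all tested genes. The median size of the log2 difference was 0.14 over the members and 0.16 over all tested genes.

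Set directly against each other, KO and C247S KI livers differed in 4 of the 7 members, where 10.3% of all tested genes passed (4.41% higher and 5.85% lower in KO). Igfals and Igfbp2 rose in KO relative to C247S KI, and Igfbp1 and Igfbp3 fell. The libraries did not overlap for Igfals and Igfbp1, against 9.67% of all tested genes. Without any 1 of KO 2, KO 3, KO 5, C247S KI 1, C247S KI 2 or C247S KI 5, only Igfals and Igfbp1 of the 4 passed. The comparisons with WT and with C247S KI use the same KO libraries, so their results are not independent of each other.

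**Figure D2:**
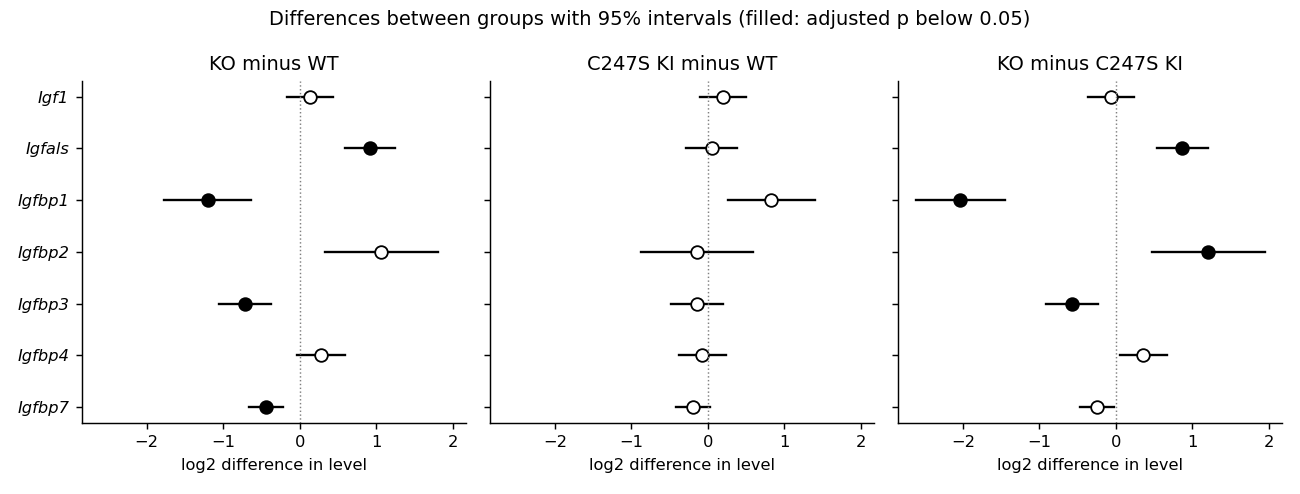
The log2 difference in level (x axis) of each gene (rows) is drawn with its 95% interval for KO minus WT, C247S KI minus WT and KO minus C247S KI, and filled points had an adjusted p below 0.05. Igfals lies at 0.92 and Igfbp1 at -1.20 in KO minus WT, whereas every point of C247S KI minus WT is open, with Igfbp1 at 0.83.

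Igf1, the ligand, lies on chromosome 10 (87858265 to 87937042 on the plus strand; ENSMUSG00000020053; all gene coordinates are from GENCODE M21, GRCm38). Its level was 359 to 466 CPM in KO, 374 to 554 CPM in C247S KI and 305 to 460 CPM in WT libraries. The 3 ranges overlapped widely. The log2 difference of KO minus WT was 0.14 (SE 0.14, 95% interval -0.16 to 0.44, edgeR adjusted p = 0.596), that of C247S KI minus WT was 0.20 (interval -0.10 to 0.50, edgeR adjusted p = 0.655) and that of KO minus C247S KI was -0.06 (interval -0.36 to 0.24, edgeR adjusted p = 0.812). The interval of KO minus WT reaches from 0.895-fold to 1.36-fold.

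Igf1 counts were spread over several annotated transcripts, and the gene total cannot show a shift between them. The share of the transcript with the highest mean share was therefore tested separately. The longest, Igf1-202 (ENSMUST00000095360, 7052 bases), held 51.8 ± 2.49% of Igf1 counts in KO, 56.7 ± 8.95% in C247S KI and 53.7 ± 6.14% in WT livers (SD, n = 5 each). Igf1-205 and Igf1-206, 798 and 651 bases long, held most of the rest, and their shares were not tested. No difference in the share of Igf1-202 passed the exact two-sided permutation test, with the lowest of 3 at exact p = 0.294 for KO against C247S KI (adjusted p = 0.869 over 6 tests of shares). How kallisto divides reads among overlapping transcripts adds an error that the table does not give.

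Igfals, which encodes the acid-labile subunit (chromosome 17, 24865997 to 24882010, plus strand; ENSMUSG00000046070), showed a rise in KO livers against both other groups. Its level was 122, 147, 119, 144 and 95.4 CPM in KO 1 to KO 5, against 63.0, 63.7, 59.2, 70.8 and 74.1 CPM in WT 1 to WT 5. The C247S KI libraries held 55.9, 71.9, 83.2, 83.8 and 47.9 CPM. The lowest KO library, KO 5, lay above the highest library of either other group, and the C247S KI and WT libraries overlapped. Igfals rose 1.90-fold in KO against WT, with a log2 difference of 0.92 (SE 0.16, interval 0.59 to 1.25, edgeR adjusted p = 0.00289). Relative to C247S KI the rise was 0.87 (SE 0.16, interval 0.54 to 1.20, edgeR adjusted p = 0.00234), and C247S KI minus WT was 0.05 (interval -0.28 to 0.38, edgeR adjusted p = 0.929).

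Most Igfals counts were assigned to an annotated transcript without a coding sequence. Igfals-204 (ENSMUST00000234754, a processed transcript of 2064 bases) held 67.3 ± 4.50% of Igfals counts in KO, 65.7 ± 3.54% in C247S KI and 67.4 ± 11.3% in WT livers. The coding transcript Igfals-201 (ENSMUST00000050714, 2625 bases) averaged 38.5 ± 5.17 CPM in KO, 21.8 ± 5.75 CPM in C247S KI and 20.5 ± 8.37 CPM in WT livers (SD, n = 5 each), and its KO libraries lay above all others. The share of Igfals-204 differed between KO and WT by -0.15 percentage points (exact two-sided permutation p = 0.976). With only coding transcripts counted, the log2 difference of Igfals in KO against WT was 0.91 and it passed.

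Igfbp3, the partner of IGF1 and the acid-labile subunit in the long-lived complex (chromosome 11, 7206086 to 7213923, minus strand; ENSMUSG00000020427), fell in KO livers while Igfals rose. It had 10.9, 12.8, 12.1, 14.9 and 11.3 CPM in KO 1 to KO 5, against 25.6, 19.5, 20.4, 21.3 and 15.4 CPM in WT 1 to WT 5. The C247S KI libraries held 20.5, 18.4, 11.5, 21.97 and 20.01 CPM. KO and WT libraries did not overlap, although KO 4 and WT 5 lay close together, and C247S KI 3 lay within the KO range. In KO against WT the log2 difference of Igfbp3 was -0.72 (SE 0.16, interval -1.06 to -0.37, edgeR adjusted p = 0.0148). Relative to C247S KI the difference was -0.58 (SE 0.16, edgeR adjusted p = 0.0333), a call that was lost without any 1 of 8 libraries, with the highest edgeR adjusted p, 0.0882, without C247S KI 1. C247S KI minus WT was -0.14 (interval -0.48 to 0.20, edgeR adjusted p = 0.781).

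Igfbp3 is known from rat liver to come mainly from non-parenchymal cells, endothelial and Kupffer cells among them, and bulk RNA cannot tell fewer cells of a type from less RNA per cell. The stellate cell and fibroblast markers summed to 195 to 517 CPM in KO, 395 to 607 CPM in C247S KI and 539 to 630 CPM in WT libraries, so the KO and WT ranges did not overlap. Of these 11 markers 1 fell in KO against WT, Col3a1, a fibrillar collagen (log2 difference -1.18, edgeR adjusted p = 0.0332), and 10 had a negative difference. Of all tested genes 4.19% fell in that comparison, a share that stands beside this count and that of the endothelial markers. At such a share a list of 11 genes can hold 1 call. The collagens Col1a1, Col1a2 and Col3a1 made up most of the sum, at 121, 61.8 and 37.8 CPM in KO and 184, 103 and 85.7 CPM in WT livers. Des, Colec11 and Ngfr stood at 0.997-fold, 0.996-fold and 1.05-fold the WT level in KO. Lrat, Reln, Dcn, Pdgfrb and Acta2 stood between 0.629-fold and 0.815-fold. The sinusoidal endothelial markers summed to 194 to 327 CPM in KO, 183 to 249 CPM in C247S KI and 159 to 395 CPM in WT libraries. Of these 11 markers Lyve1 and Pecam1 fell in KO against WT (-1.41 and -0.80, edgeR adjusted p = 0.00347 for each), and the median over the list was -0.04. None of these markers was at 0 in all libraries. All 10 Kupffer cell and macrophage markers had a negative difference in KO against WT (median -0.25), and none passed in edgeR. In KO against C247S KI the stellate cell and fibroblast markers had 8 negative and 3 positive differences (median -0.26). There the endothelial markers had 8 positive and 3 negative (median 0.39), and all 10 Kupffer cell and macrophage markers were positive (median 0.49). Of these 3 lists only Lyve1 passed there, and it fell, where 5.85% of all tested genes fell. The part of these markers in the Igfbp3 result was not tested.

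Igfbp1, the binding protein that insulin represses (chromosome 11, 7197782 to 7202546, plus strand; ENSMUSG00000020429), showed the largest differences of the 7 between KO and the other groups. Its level was 112, 66.9, 91.8, 64.3 and 139 CPM in KO 1 to KO 5, 517, 376, 270, 550 and 235 CPM in C247S KI 1 to 5, and 187, 136, 296, 216 and 258 CPM in WT 1 to WT 5. KO libraries did not overlap with C247S KI libraries, and 4 of the 5 lay below every WT library, while KO 5 lay just above WT 2. C247S KI 1, 2 and 4 lay above every WT library and the other two lay within the WT range. In KO against C247S KI the log2 difference of Igfbp1 was -2.04 (SE 0.28, interval -2.62 to -1.45, edgeR adjusted p = 0.000321), which is 4.10-fold lower. Relative to WT it was -1.20 (SE 0.27, interval -1.78 to -0.63, edgeR adjusted p = 0.0142), which is 2.30-fold lower. C247S KI minus WT was 0.83 (SE 0.27, interval 0.27 to 1.40, edgeR adjusted p = 0.341), and this difference did not pass.

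Igfbp1 and Igfbp3 are neighbours on chromosome 11, with 3539 bases between their annotated ends, and both fell in KO against WT. Their order across single libraries differed: C247S KI 3 had the lowest Igfbp3 level of its group and only the second lowest Igfbp1 level, and WT 1 had the highest Igfbp3 level of its group and the second lowest Igfbp1 level. All Igfbp1 counts fell on its 1 annotated transcript.

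Igfbp1 is known to follow the time of day and of feeding in liver, and clock genes differed between KO and the other groups, while 0 of 13 passed in edgeR in C247S KI against WT. The clock index, the mean log2 CPM of Dbp, Ciart, Per2, Per3 and Tef less that of Arntl, Clock and Cry1, was 3.18 to 3.67 in KO, 0.91 to 2.23 in C247S KI and 1.74 to 2.80 in WT libraries, with no KO library inside the range of the others. Its genes were chosen with earlier results of these data known, so this separation is no independent result. The clock genes Nr1d1, Per1, Hlf, Cry2 and Nr1d2 were left out of it. Their log2 differences of KO minus WT were 0.79, 0.31, 0.12, 0.08 and -0.15, and none passed. Of 13 clock genes tested 2 rose and 0 fell in KO against WT, and 4 rose and 3 fell in KO against C247S KI. Of all tested genes 2.56% rose and 4.19% fell in KO against WT, and 4.41% rose and 5.85% fell in KO against C247S KI. In C247S KI against WT 0.0862% of all tested genes passed. Dbp, a clock output factor, averaged 182 ± 50.97 CPM in KO, 60.5 ± 20.6 CPM in C247S KI and 85.2 ± 20.2 CPM in WT livers. With the index as a covariate, Igfals alone of the members passed in KO against WT, at a log2 difference of 1.13 (edgeR adjusted p = 0.0373), and the log2 differences of Igfbp1, Igfbp3 and Igfbp7 were -0.58, -0.54 and -0.60. In KO against C247S KI no member passed in that edgeR fit, which called 71 of all tested genes, with Igfbp1 at -1.22 (0.271) and Igfals at 1.17 (0.091). Because the index does not overlap between KO and the other libraries, the index and the genotype cannot be told apart here.

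**Figure D3:**
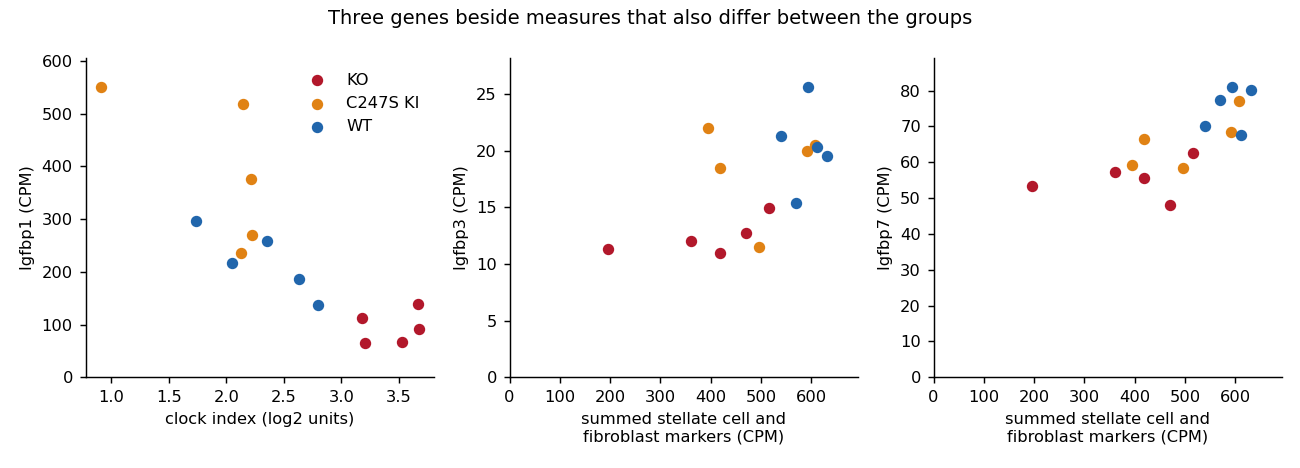
Igfbp1 (CPM) is plotted against the clock index, and Igfbp3 and Igfbp7 (CPM) against the summed CPM of 11 stellate cell and fibroblast markers, with 1 point per library coloured by KO, C247S KI or WT. The 5 KO libraries sit at the right of the first panel (3.18 to 3.67), and in the other panels they lie left of all WT libraries, at 195 to 517 CPM of marker sum against 539 to 630 CPM. Collagens made up most of the group mean of that sum.

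Igfbp2, a further small-complex binding protein that insulin and fasting also affect in liver (chromosome 1, 72824503 to 72852474, plus strand; ENSMUSG00000039323), had the opposite tendency to Igfbp1. It had 497, 942, 576, 567 and 585 CPM in KO 1 to KO 5, 206, 238, 254, 571 and 100 CPM in C247S KI 1 to 5, and 488, 224, 306, 294 and 195 CPM in WT 1 to WT 5. KO 2 stood well above the other KO libraries, and C247S KI 4 and WT 1 stood above the rest of their groups and close to the KO libraries. In KO against C247S KI Igfbp2 rose, with a log2 difference of 1.21 (SE 0.35, interval 0.47 to 1.95, edgeR adjusted p = 0.0365). That call was lost without any 1 of 7 libraries (edgeR adjusted p of up to 0.109, without KO 2), when only KO and C247S KI libraries were fitted (0.0529), and with C247S KI 3, C247S KI 5 and WT 1 all left out (0.074). Against WT the difference was 1.07 (SE 0.35, interval 0.33 to 1.81, edgeR adjusted p = 0.0721) and did not pass, although the KO and WT libraries did not overlap. It passed when WT 1 was left out (1.32, edgeR adjusted p = 0.0422) and when only KO and WT libraries were fitted (0.0136). Without KO 2 the difference from WT was 0.90 (edgeR adjusted p = 0.175), and in 19 of 24 alternatives it did not pass.

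Igfbp5, the neighbour of Igfbp2 on chromosome 1 with 5457 bases between them, averaged 15.2 CPM in KO, 12.1 CPM in C247S KI and 14.8 CPM in WT livers. Its log2 difference of KO minus WT was 0.03 (interval -0.76 to 0.83, edgeR adjusted p = 0.970).

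Igfbp4 (chromosome 11, 99041244 to 99054392, plus strand; ENSMUSG00000017493) had 2194 to 2665 CPM in KO, 1292 to 2274 CPM in C247S KI and 1903 to 2097 CPM in WT libraries. All KO libraries lay above all WT libraries in level, and the lowest value of the 15 was that of C247S KI 5. The log2 difference of KO minus WT was 0.28 (SE 0.15, interval -0.03 to 0.60, edgeR adjusted p = 0.261), and KO minus C247S KI was 0.36 (interval 0.05 to 0.67, edgeR adjusted p = 0.130). Neither passed.

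Igfbp7, which encodes a secreted protein with weak affinity for IGF1 that is abundant in vessel walls (chromosome 5, 77349240 to 77408041, minus strand; ENSMUSG00000036256), fell in KO livers by a small but even step. It had 55.6, 48.0, 57.4, 62.6 and 53.4 CPM in KO 1 to KO 5, against 81.0, 80.2, 67.6, 70.2 and 77.3 CPM in WT 1 to WT 5, and 77.2, 66.4, 58.5, 59.1 and 68.5 CPM in C247S KI 1 to 5. KO and WT libraries did not overlap, and the C247S KI libraries lay across both ranges. The log2 difference of Igfbp7 between KO and WT was -0.44 (SE 0.10, interval -0.66 to -0.22, edgeR adjusted p = 0.0173). KO minus C247S KI was -0.25 (interval -0.47 to -0.03, edgeR adjusted p = 0.127) and C247S KI minus WT was -0.19 (interval -0.41 to 0.03, edgeR adjusted p = 0.560). The marker sums given for Igfbp3 stand beside this gene too, since stellate and endothelial cells are its known sources in liver, and their part was not tested.

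Counted per length, the binding-protein transcripts had a different make-up in KO livers. Igfbp1 made up 4.99 ± 1.92% of the summed level of the 5 binding-protein genes in KO, 23.98 ± 4.90% in C247S KI and 14.3 ± 3.82% in WT livers (SD, n = 5 each). Igfbp2 made up 38.2 ± 5.44% in KO, 18.9 ± 6.85% in C247S KI and 23.1 ± 6.37% in WT livers. Igfbp4 held 52.4 ± 3.92% in KO, 50.4 ± 6.17% in C247S KI and 55.0 ± 4.48% in WT livers, with overlapping ranges. The sum of the 5 genes was 1129 to 1554 CPM per kb in KO, 658 to 1497 in C247S KI and 869 to 1139 in WT libraries. These shares use the same values as the tests above and were given no test of their own.

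**Figure D4:**
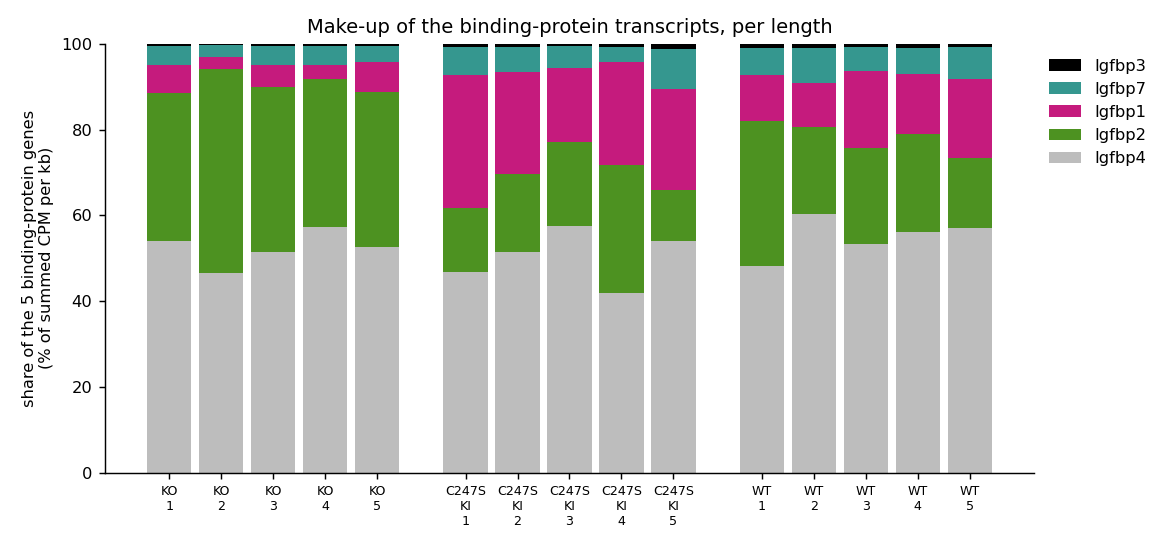
Stacked bars give, for each library of KO, C247S KI and WT, the percent of the summed CPM per kb of Igfbp1, Igfbp2, Igfbp3, Igfbp4 and Igfbp7 that each gene holds. The Igfbp1 band spans 2.83% to 7.16% in KO bars, 17.3% to 31.1% in C247S KI bars and 10.3% to 18.3% in WT bars.

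The genes varied to different degrees between libraries of 1 group. In C247S KI livers the highest Igfbp2 level was 5.69 times the lowest, against 1.90 times in KO and 2.502 times in WT livers, while for Igfbp4 the same ratio was 1.22 in KO, 1.76 in C247S KI and 1.102 in WT livers. C247S KI 4 had the highest level of its group for 6 of the 7 members, all but Igfbp7, and C247S KI 5 had the lowest level for 4. C247S KI 4 also had the highest summed hepatocyte markers of its group, 127271 CPM, the lowest Kupffer cell and macrophage markers, 90.1 CPM, and the lowest clock index, 0.91. The part of these measures in the C247S KI levels was not tested.

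None of the other IGF pathway genes passed in edgeR in any of the 3 comparisons. That list, chosen with earlier results of these data known like the other lists here, held 22 genes of which 19 were tested: ligand, receptors, further binding proteins, proteases that release IGF1 and signalling adaptors. The median log2 difference over the 19 was 0.02 in KO against WT, -0.02 in C247S KI against WT and -0.20 in KO against C247S KI, beside medians of -0.01, 0.00 and -0.03 over all tested genes. In the same order 6.75%, 0.0862% and 10.3% of all tested genes passed, and at such shares a list of 19 can hold no call. Igf1r, the IGF1 receptor, was low in liver, at 3.93 ± 0.76 CPM in KO and 5.72 ± 0.54 CPM in C247S KI livers, with no overlap and a log2 difference of -0.54 (edgeR adjusted p = 0.0624). Insr, the insulin receptor, was at 94.8 CPM in KO, 109 CPM in C247S KI and 89.7 CPM in WT livers. Igf2, a second ligand that mouse liver shuts off after birth, was at 0.415 CPM in KO and 0.849 CPM in WT livers (-1.03, edgeR adjusted p = 0.130), and Htra1, a protease that cleaves IGF-binding proteins, was at 2.62 CPM in KO and 4.07 CPM in WT livers (-0.63, edgeR adjusted p = 0.113).

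Igf1 and Igfals are both known targets of growth hormone through STAT5, and 1 gene of that route was called. Of all tested genes 6.75% passed in KO against WT and 10.3% in KO against C247S KI, shares near 1 call in 11 genes. Of 11 tested genes Bcl6, a repressor that binds at many STAT5 sites, rose in KO against WT (log2 difference 1.76, edgeR adjusted p = 0.0301) and against C247S KI (1.79, edgeR adjusted p = 0.0216), at 52.7 ± 35.9 CPM in KO, 15.2 ± 8.91 CPM in C247S KI and 15.5 ± 5.36 CPM in WT livers, with overlapping libraries. Ghr, the growth hormone receptor, was at 406 CPM in KO, 350 CPM in C247S KI and 418 CPM in WT livers, and KO minus WT was -0.04 (interval -0.36 to 0.28, edgeR adjusted p = 0.905). Stat5a, one of the STAT5 genes, was at 14.2 CPM in KO, 22.5 CPM in C247S KI and 24.1 CPM in WT livers (KO minus WT -0.76, interval -1.28 to -0.24, edgeR adjusted p = 0.0695). Stat5b was at 45.4 CPM in KO, 53.7 CPM in C247S KI and 61.2 CPM in WT livers (KO minus WT -0.43, interval -0.77 to -0.09, edgeR adjusted p = 0.110). Socs2, a STAT5 target that feeds back on the receptor, was at 12.3 CPM in KO, 11.5 CPM in C247S KI and 6.56 CPM in WT livers (KO minus WT 0.91, interval 0.06 to 1.76, edgeR adjusted p = 0.182). Onecut1, a liver transcription factor that growth hormone induces in rat, was at 19.4 ± 14.1 CPM in KO, 22.1 ± 18.4 CPM in C247S KI and 7.51 ± 3.50 CPM in WT livers. Its C247S KI and WT libraries did not overlap. Neither difference from WT passed (edgeR adjusted p = 0.351 for C247S KI and 0.116 for KO).

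None of the 11 FOXO factors and insulin-repressed genes passed in edgeR in any comparison, and their median log2 difference in KO against WT was 0.14. Of all tested genes 6.75% passed in KO against WT, 0.0862% in C247S KI against WT and 10.3% in KO against C247S KI. At such shares a list of 11 genes can hold no call. Pck1, a gluconeogenic enzyme gene repressed by insulin, was at 4123 CPM in KO and 3189 CPM in WT livers (0.37, interval -0.06 to 0.80, edgeR adjusted p = 0.287), on the other side of 0 from Igfbp1. G6pc, the glucose-6-phosphatase gene, was at 287 CPM in KO and 262 CPM in WT livers (0.13, interval -0.49 to 0.75, edgeR adjusted p = 0.829). The lowest p values of that list in KO against WT were those of Sesn3 (-0.50, edgeR adjusted p = 0.101) and Klf15 (0.46, edgeR adjusted p = 0.136). In C247S KI against WT they were those of Insr (0.28, edgeR adjusted p = 0.477) and Irs2, an insulin receptor substrate (0.56, edgeR adjusted p = 0.491), and in KO against C247S KI those of Klf15 (0.59, edgeR adjusted p = 0.0505) and Foxo4 (0.24, edgeR adjusted p = 0.148). Pck1 and G6pc were named after their values were seen, as were Ghr, Stat5a, Stat5b and Socs2 in KO against WT and Igfbp5. The same holds for Insr and Onecut1 beside KO livers and for the stellate cell markers other than Col3a1.

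Igfbp1 is also a target of the ATF4 stress response, where 1 of 11 tested genes fell in KO against WT, and 1 rose and 1 fell in KO against C247S KI. Of all tested genes 4.19% fell in KO against WT, and 4.41% rose and 5.85% fell in KO against C247S KI. Atf3, a stress-induced transcription factor, fell to 2.02 ± 1.25 CPM in KO livers, against 12.9 ± 10.4 CPM in WT livers (-2.67, edgeR adjusted p = 0.0206). Trib3, a pseudokinase induced by ATF4, rose in KO against C247S KI by 1.64 (edgeR adjusted p = 0.00275), and Fgf21, a fasting and stress hormone, fell by 1.71 (edgeR adjusted p = 0.0131).

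Markers of other cell types were compared across the same libraries. Of all tested genes 6.75% passed in KO against WT and 10.3% in KO against C247S KI. Hepatocyte markers summed to 57458 to 76912 CPM in KO, 77001 to 127271 CPM in C247S KI and 89575 to 107161 CPM in WT libraries, so this sum was lower in every KO library than in every WT library. Alb made up most of it and was the 1 of 10 hepatocyte markers that fell in KO against WT (-0.80, edgeR adjusted p = 0.0294), while 5 of the 10 had a positive and 5 a negative difference, with a median of -0.08. In KO against C247S KI 2 of the 10 fell, Alb (-0.80, edgeR adjusted p = 0.0219) and Fgb. There 7 had a negative and 3 a positive difference (median -0.11). Fgb averaged 2910 ± 394 CPM in KO and 5812 ± 3460 CPM in C247S KI livers. Kupffer cell and macrophage markers gave no call in edgeR, with sums of 117 to 417 CPM in KO, 90.1 to 225 CPM in C247S KI and 185 to 461 CPM in WT libraries. Their 10 differences were all negative in C247S KI against WT (median -0.77) and all positive in KO against C247S KI (median 0.49). Of 6 tested cholangiocyte markers Spp1 and Sox9 fell in KO against C247S KI (-1.48 and -1.04, edgeR adjusted p = 0.00304 and 0.0122), and their sums were 34.4 to 50.1 CPM in KO, 57.2 to 136 CPM in C247S KI and 43.4 to 64.2 CPM in WT libraries. Among T and B cell markers Ms4a1 fell in KO against WT (-2.02, edgeR adjusted p = 0.0415), and the list summed to 5.92 to 8.35 CPM in KO, 5.53 to 10.7 CPM in C247S KI and 5.03 to 17.6 CPM in WT libraries. Of 5 adipose markers only Cfd was high enough to test and it fell in KO against both C247S KI (-3.76, edgeR adjusted p = 0.000961) and WT (-2.54, edgeR adjusted p = 0.0155), with Adipoq, Lep, Plin1 and Retn at 0.324 CPM or less in every library.

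For each member that passed, the 3 genes nearest in pattern were found by the root mean square difference in log2 CPM over the 15 libraries, each gene centred on its own mean. For Igfbp1 they were Btg2, an antiproliferative gene (0.376), Srrm4, a splicing regulator (0.439), and Grhl1, a transcription factor (0.458), beside a spread of Igfbp1 itself of 0.938. For Igfbp2, with a spread of 0.823, they were Cyp2c54 (0.377), Mup3 (0.385) and Cyp1a2 (0.399), of which Cyp2c54 and Mup3 belong to families of near-identical genes and are uncertain. Igfals, with a spread of 0.485, was nearest to Ier2 (0.230), Kcnn1 (0.232) and Fance (0.235). Igfbp3 (0.394) was nearest to Adss (0.162), Bag2 (0.184) and Enpp2 (0.192), and Igfbp7 (0.221) to Rhob (0.088), Asph (0.101) and Ifngr1 (0.109). The likeness rests on levels in these libraries alone.

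**Figure D5:**
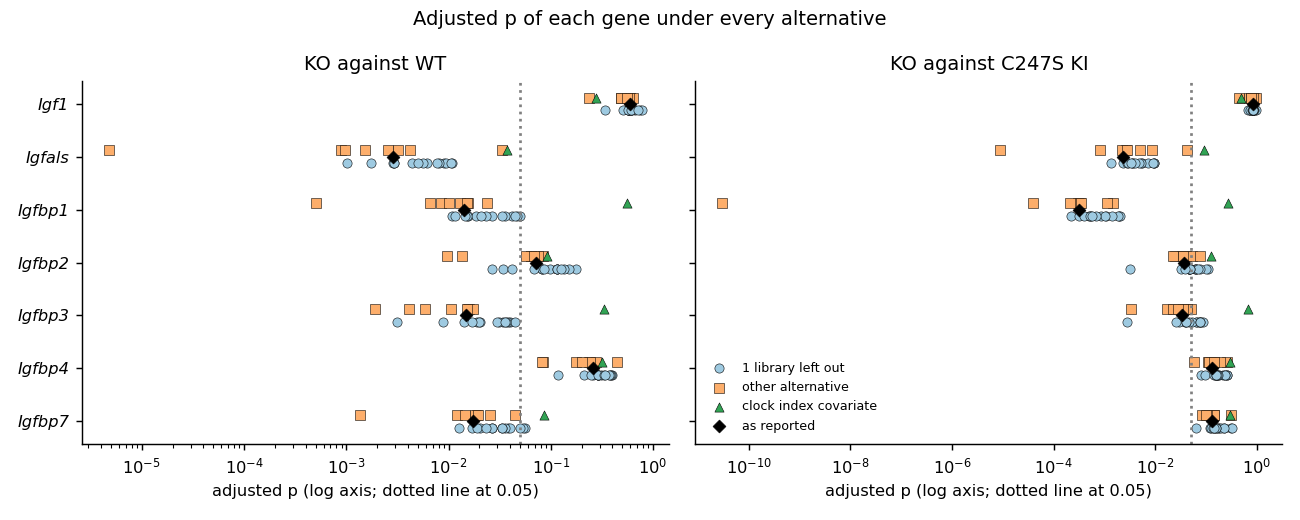
The adjusted p (x axis, log scale) of each gene (rows) is shown for KO against WT and KO against C247S KI as reported (diamonds), with 1 library left out (circles), with the clock index as a covariate (triangles) and under the other alternatives (squares). Igfals stays left of 0.05 in every alternative run for KO against WT (highest 0.0373), whereas the marks of Igfbp2 and Igfbp3 in KO against C247S KI lie on both sides of it (up to 0.125 and 0.658).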

How the data were processed

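Bulk liver RNA from 15 mouse libraries was sequenced by the submitters. The values the authors deposited are whole-number estimated counts for each transcript. Trimmomatic 0.39, kallisto 0.50.1, DESeq2 and mm10 are named, with no order or role, per the submitters' processing notes. The transcript set, the strand setting and any filter are not given in the sources used here. Transcripts were matched to GENCODE M21 (GRCm38) by identifier without version (114331 of 115911, 98.64%), and unmatched transcripts, 0.366% to 0.459% of a library's counts, stayed out. No rounding was needed. Igf1 overlaps an antisense gene, and Igfbp7 overlaps Polr2b at its end and the antisense gene Gm34648 inside its span. Without strand their reads cannot be told apart there.

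Counts were summed per gene symbol, filtered with filterByExpr (minimum count 10, total 15) and fitted over all 15 libraries by the quasi-likelihood test of edgeR 4.0.16 on group means, scaled by TMM (R 4.3.3), with Benjamini-Hochberg adjustment over 13916 genes and a threshold of 0.05. The SE was the log2 difference over the root of F. CPM used the same TMM scaling, and their log2 values a prior of 2 counts. Levels per length used count-weighted transcript lengths. Shares of the transcript with the highest mean share were compared by exact permutation tests (scipy 1.17.1), and figures used matplotlib 3.10.9. The members had 201 to 56790 counts per library. Ms4a1, Igf2 and Arntl had as few as 3, 4 and 24 counts in a KO library, where counting error is not small beside the spread between libraries. No library was a copy of another (30 same-group pairs, chi-square over its degrees of freedom 22.8 to 369). The procedure was tested on simulated counts. Alternatives were DESeq2 1.42.0, RLE factors, other count filters (none, or a mean of at least 50), 2-group fits, the replicate number as a block, a clock index covariate (Npas2 did not pass the count filter and was left out of it), coding transcripts only, leaving out C247S KI 3, C247S KI 5 and WT 1 together, and leaving out each library. The genes were the 7 members, up to 3 called genes of each list, or the 2 with the lowest p of the IGF, growth hormone and FOXO lists where none passed, and the 3 nearest genes. The members, lists and alternatives were chosen with earlier results of these data known.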

Additional observations from a re-analysis of the deposited data

Results flagged for a closer look

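Among the 21 sets of 5 libraries (7 genes in 3 groups) 2 held a library far from the other 4, where chance gives about 1 in 20. Igfbp2 stood at 942 CPM in KO 2, and without that library its log2 difference of KO against C247S KI was 1.03 (edgeR adjusted p = 0.109). Igfbp3 stood at 11.5 CPM in C247S KI 3, inside the KO range of 10.9 to 14.9 CPM, and without that library KO against C247S KI was at -0.71 (edgeR adjusted p = 0.00279).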

How the results depend on the processing

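The 4 members called in KO against WT were 4 in DESeq2, with RLE factors, with either other count filter, with coding transcripts only and with the replicate number as a block, 5 in the 2-group fit and with C247S KI 3, C247S KI 5 and WT 1 all left out, 3 to 5 with 1 library left out, and 1 with the clock index. In KO against C247S KI the 4 calls became 0 with the clock index, 3 in the 2-group fit and with C247S KI 3, C247S KI 5 and WT 1 all left out, and 2 to 4 with 1 library left out. In C247S KI against WT 0 members passed under every alternative run. Igfals kept its call against WT in all 24 alternatives (0.87 to 1.13 log2). Signs turned only for differences that did not pass. Against WT, C247S KI gave Igfals at -0.03 with the clock index and between -0.03 and 0.15 with 1 library left out (-0.02 without C247S KI 3), and with C247S KI 3, C247S KI 5 and WT 1 all left out it gave Igfbp2 at 0.42, Igfbp3 at 0.09 and Igfbp4 at 0.03. With 1 library left out Igfbp2 lay between -0.59 and 0.12 (0.08 without C247S KI 5, 0.12 without WT 1) and Igfbp4 between -0.14 and 0.04 (0.04 without C247S KI 5). Igf1 in KO against C247S KI was at 0.40 with the clock index and between -0.11 and 0.07 with 1 library left out (0.07 without C247S KI 4). The causes were not tested. Transcript shares gave 0 calls with each library left out, and Igfbp4 led in 14 of 15 libraries by either length. Correlations of the deviations of same-numbered libraries were -0.141 to 0.219 in KO and WT, 0.00604 to 0.381 in C247S KI and WT, where all 5 were positive and 3 over 0.1, and -0.0695 to 0.0917 in KO and C247S KI. In no comparison were all 5 over 0.1, so the numbers were not taken as pairing the libraries. The block changed no member's call, with 4, 0 and 4 called in KO against WT, C247S KI against WT and KO against C247S KI, and 1046, 6 and 1594 genes in all. Over all genes, in the same order, 939, 12 and 1427 passed as reported, 1493, 65 and 1900 in DESeq2, 86, 30 and 71 with the clock index, and 1542 in KO against WT with C247S KI 3, C247S KI 5 and WT 1 left out.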

Other observations

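Ratios between members within a library, per length, were not part of any test. The ratio of Igfals to Igfbp3, both parts of the long-lived complex, was 9.16 to 12.5 in KO, 2.60 to 7.90 in C247S KI and 2.67 to 5.25 in WT libraries, so every KO library lay above all others. The ratio of Igf1 to Igfbp1 was 0.92 to 2.60 in KO, 0.29 to 0.58 in C247S KI and 0.44 to 0.88 in WT libraries. The ratio of Igfbp2 to Igfbp1 was 5.03 to 16.8 in KO, 0.48 to 1.24 in C247S KI and 0.90 to 3.12 in WT libraries. All 3 ratios are built from the levels reported above and are no further support for them.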
